A study of Homo sapiens with 2 samples.

Results

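The 10 genes described here form the core of the integrated stress response: the 4 kinases of the translation factor eIF2alpha (EIF2AK1, EIF2AK2, EIF2AK3 and EIF2AK4), eIF2alpha itself (EIF2S1), the 2 subunits that direct a phosphatase back to it (PPP1R15A and PPP1R15B), and the effectors ATF4, DDIT3 and TRIB3. They were chosen by gene symbol, and all 10 were found among the 23321 genes of the deposited RNA sequencing table. The study used AGS, an established cell line from a human gastric adenocarcinoma, grown in DMEM with serum. Its derivative for the GGT7 group carried a stably transfected GGT7 plasmid (genotype label: GGT7 ectopic expression) and that for the control group a stably transfected negative control plasmid (genotype label: WT), and the time label of both is 2 weeks. GGT7 is a member of the gamma-glutamyltransferase family, and the series asks what its ectopic expression does in gastric cancer cells. Each group held 1 library, with 10289206 counts in the GGT7 library and 13482913 counts in the control library, so every difference below stands without replication and without a p-value. The labels do not say whether the transfected lines were single clones or pools.

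The integrated stress response joins several alarms to a shared step of protein synthesis. Each kinase answers another signal and puts a phosphate on eIF2alpha, which slows the exchange of its nucleotide by eIF2B and with it the start of translation on most mRNAs. A few mRNAs with upstream open reading frames are then translated better, and among them is ATF4, a basic leucine zipper transcription factor of genes for amino acid supply and redox balance. CHOP, encoded by DDIT3, and TRIB3 are made downstream of ATF4, and PPP1R15A brings protein phosphatase 1 to eIF2alpha and so ends the signal. Much of this control acts on protein phosphorylation and translation, which RNA counts do not measure.

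GGT7 itself had 470 counts in the GGT7 library and 90 counts in the control library, 6.84 times the control level (95% counting interval 5.45 to 8.67). Of 9 epithelial markers, 7 were in the table and 6 reached 1 FPKM (fragments per kilobase of exon, scaled to the library total) in the higher library. The 7 together summed to 185 FPKM in the GGT7 library and 207 FPKM in the control library. Most of this came from the keratin genes KRT18 (117 and 111 FPKM) and KRT8 (45.4 and 70.0 FPKM, a ratio of 0.649). In the GGT7 and control libraries ELF3 was at 12.2 and 17.7 FPKM and EPCAM at 1.57 and 2.29 FPKM. CLDN7 was at 4.91 and 3.34 FPKM and CLDN4 at 2.96 and 2.71 FPKM in the GGT7 and control libraries. CDH1 stayed below 1 FPKM, with 116 counts in the GGT7 library and 94 in the control library. Of the 6 markers that reached 1 FPKM, 3 were higher in the GGT7 library and 3 lower. Markers of other cell types summed to less: 5 leukocyte markers summed to 6.71 and 1.63 FPKM in the GGT7 and control libraries, mostly from the lysosomal marker CD68 (6.08 and 1.11 FPKM), with the pan-leukocyte gene PTPRC at 5 counts in each library. The 5 fibroblast markers summed to 6.21 and 7.91 FPKM in the GGT7 and control libraries, mostly from LUM (4.07 and 5.11 FPKM), which lay above EPCAM. The 3 endothelial markers summed to 2.04 and 2.25 FPKM in the GGT7 and control libraries. The part of all these markers in the results below was not tested. In bulk RNA, fewer cells with an mRNA and less of it per cell cannot be told apart.

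Of the 10 genes, the 3 effector and phosphatase genes TRIB3, ATF4 and PPP1R15B stood highest relative to the control. Of the 4 kinases, EIF2AK1, EIF2AK2 and EIF2AK3 were lower, and EIF2AK4 was at 1.06 with an interval that held 1. By the rule of size used here, at least 1.5-fold on the log2(FPKM + 1) scale, 2 of the 10 genes were higher in the GGT7 library (TRIB3 and ATF4) and 0 were lower. All 10 belong to the 14215 measured genes, those that reached 1 FPKM in the higher library, of which 3.9% were that much higher and 4.97% that much lower. Among the protein-coding ones alone these shares were 2.97% and 2.86%. No member reached 2-fold in either direction, against 0.858% of all measured genes that were 2-fold or more higher and 1.16% that were 2-fold or more lower. The median log2 difference of the 10 genes was 0.18, and that of all measured genes was -0.03. The exact 95% interval of the ratio, which covers counting error only, lay above 1 for 5 of the 10 genes and below 1 for 4. Among all measured genes it lay above 1 for 19.6% and below 1 for 25.4%. Such an interval narrows as counts rise. The members had 158 to 9838 counts per library, and these shares were not matched for counts.

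**Figure D1:**
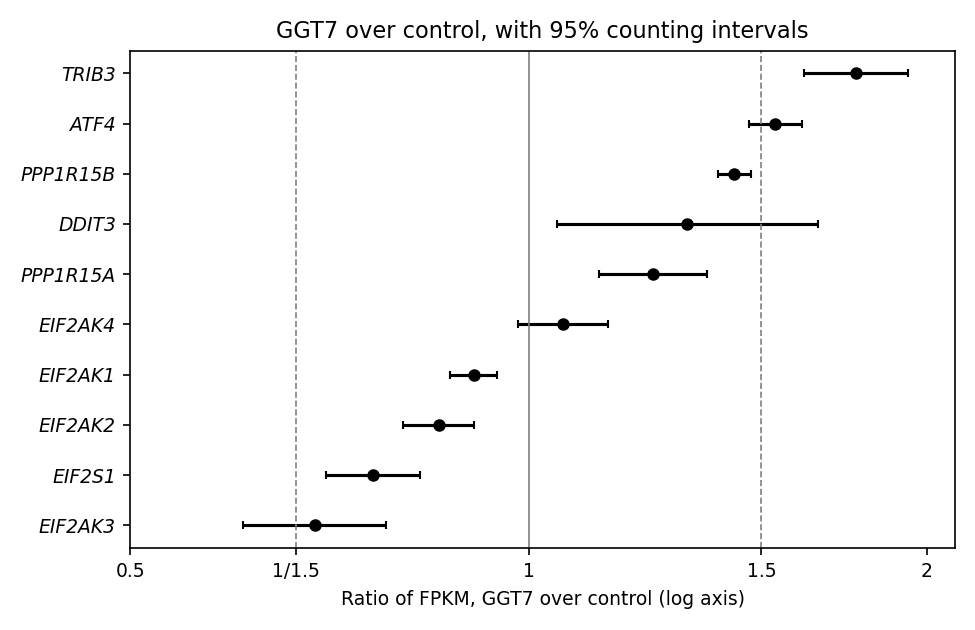
Ratio of FPKM in the GGT7 library over the control library for each of the 10 genes (horizontal log axis), with exact 95% counting intervals as bars; the solid line marks 1 and the dashed lines mark 1.5-fold either way. TRIB3 and ATF4 lie past 1.5, PPP1R15B lies just below it, and EIF2S1 and EIF2AK3 lie lowest at 0.76 and 0.69.

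The promoters of the phosphatase genes are shown because they alone of those searched held an element that ATF4-type factors are known to bind. Whether these elements had a part in the values of either gene was not tested. The 250 bases before the RefSeq start site of 9 of the 10 genes were searched for the C/EBP-ATF composite element, taken as TGATGNAAN on either strand, and for the cyclic AMP response element TGACGTCA, which reads the same on both strands. The composite element was found in PPP1R15B alone of the 9, and the cyclic AMP element in PPP1R15A alone. The windows of TRIB3 and ATF4, the members past 1.5-fold, held neither. Over all 27301 genes with a window, 3.87% held the composite element and 2.03% the cyclic AMP element, and over the measured genes with a window the shares were 2.02% and 3.68%. The stretches below are GRCh38.p14 from RefSeq, ending before any annotated GENCODE 29 exon of the gene, with the matching letters in capitals. The PPP1R15B stretch is chr1:204411818-204412067 on the minus strand, and the PPP1R15A stretch is chr19:48872171-48872391 on the plus strand.
PPP1R15B: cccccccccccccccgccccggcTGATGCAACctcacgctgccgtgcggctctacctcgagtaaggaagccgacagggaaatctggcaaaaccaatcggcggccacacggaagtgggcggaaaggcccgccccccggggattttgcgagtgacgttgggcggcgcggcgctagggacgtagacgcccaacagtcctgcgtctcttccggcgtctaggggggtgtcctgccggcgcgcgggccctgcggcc
PPP1R15A: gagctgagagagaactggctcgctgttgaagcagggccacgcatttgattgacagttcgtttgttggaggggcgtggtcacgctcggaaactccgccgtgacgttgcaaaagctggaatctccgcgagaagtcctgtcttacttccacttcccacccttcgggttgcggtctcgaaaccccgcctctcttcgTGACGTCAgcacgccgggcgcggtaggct

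Counted back from the start site, the PPP1R15B match runs from base -227 to -219 and the PPP1R15A match from -58 to -51. A match of letters is a description and not a site of binding, and the absence of one in the other windows says nothing about the factor. For comparison, 8 of 31 listed ATF4 targets with a window held the composite element, a share of 25.8%, and 0 held the cyclic AMP element. Short stretches around the element in PPP1R15B and in all 8 of these targets are set side by side, with the 9 matching letters in capitals; the last 5 carry them on the opposite strand.
PPP1R15B: cgccccggcTGATGCAACctcacgctg
CEBPG: cgcggcgtcTGATGCAACctgccggca
SLC1A5: ggaagtggcTGATGCAAGctgtccagg
ASNS: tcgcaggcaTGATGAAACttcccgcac
CHAC1: tcccctgccGTTGCATCActcctgcca
AARS: tttctcgcaGTTGCATCAgccaagtta
HERPUD1: acgcggcggGTTGCATCAgcccgtgcc
GARS: tacgcggcgATTTCATCAtgctccgag
FGF21: aacaccaggATTGCATCAgggaggagg

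These stretches are chr1:204412027-204412053 (minus strand) for PPP1R15B, chr19:33374062-33374088 (plus strand) for CEBPG, chr19:46784894-46784920 (minus strand) for SLC1A5, chr7:97872459-97872485 (minus strand) for ASNS and chr15:40953252-40953278 (plus strand) for CHAC1. The others are chr16:70289677-70289703 (minus strand) for AARS, chr16:56931956-56931982 (plus strand) for HERPUD1, chr7:30594835-30594861 (plus strand) for GARS and chr19:48755460-48755486 (plus strand) for FGF21. PPP1R15B and CEBPG share the same 9 letters, and CHAC1, AARS and HERPUD1 hold those letters on the opposite strand. PPP1R15B was at 1.43 times the control level. Of the targets that share its letters, CHAC1 was at 3.33 times, CEBPG at 1.95, AARS at 1.42 and HERPUD1 at 1.20 (1.10 to 1.31). With other letters, ASNS was at 2.19 times the control, SLC1A5 at 1.74 and GARS at 1.62, while FGF21, below 1 FPKM, had 11 counts in the GGT7 library and 6 in the control library. SLC7A5, STC2 and SLC7A11, the measured targets farthest above the control, were not among those with the element, for want of a window or of a match. Targets with and without the element were not compared, and its part in these values was not tested.

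Comparing levels between genes needs a gene length, and for most genes the deposited FPKM uses one that counts overlapping exons more than once. Across 11714 genes with at least 50 counts in each library, the length implied by the FPKM was within 1% of the summed length of all distinct GENCODE 29 exons for 86.4%, and within 1% of the merged exonic length for 9.94%. For PPP1R15B, whose exons do not overlap each other, both definitions give 5227 bases. DDIT3 is the member whose level depends most on the length. Its FPKM implies 6007 bases, while its merged exons cover 1307 and its distinct exons sum to 4231, so neither definition gives the length used. Its deposited FPKM is 0.218 of the value on merged exons, and its level and place in the order below are uncertain for this reason. A ratio between the libraries does not depend on the length, and levels are therefore given below on merged exons, with deposited FPKM named where used.

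**Figure D2:**
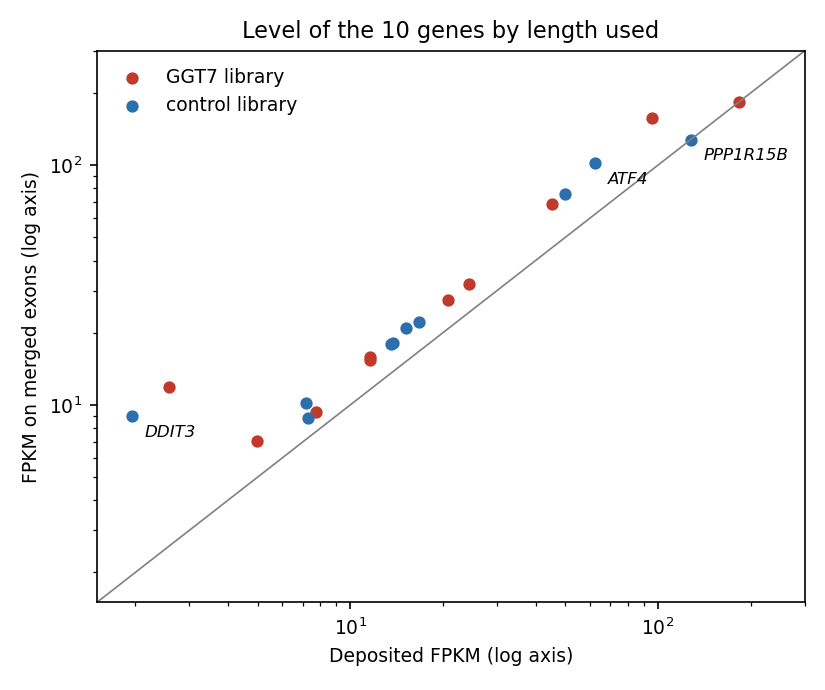
Level of the 10 genes as deposited (horizontal log axis) and on merged exons (vertical log axis), in FPKM, with 1 point per gene and library and equality as the grey line. PPP1R15B lies on the line, while DDIT3 lies farthest above it, at 1.95 deposited FPKM and 8.97 on merged exons in the control library.

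On merged exons PPP1R15B was the most abundant of the 10 mRNAs, at 183 FPKM in the GGT7 library and 128 FPKM in the control library. ATF4 followed at 157 and 102 FPKM and EIF2AK1 at 68.9 and 75.8 FPKM in the GGT7 and control libraries. The other 7 lay between 7.05 and 32.1 FPKM in the GGT7 library and between 8.80 and 22.1 FPKM in the control library. TRIB3 took the fourth place in the GGT7 library and the sixth in the control library, and EIF2S1 the sixth and the fifth. In the GGT7 library only EIF2S1 and EIF2AK2 were neighbours in the order whose counting intervals overlapped. In the control library the overlapping neighbours were PPP1R15A with EIF2S1, TRIB3 with EIF2AK2, EIF2AK3 with DDIT3, and DDIT3 with EIF2AK4.

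**Figure D3:**
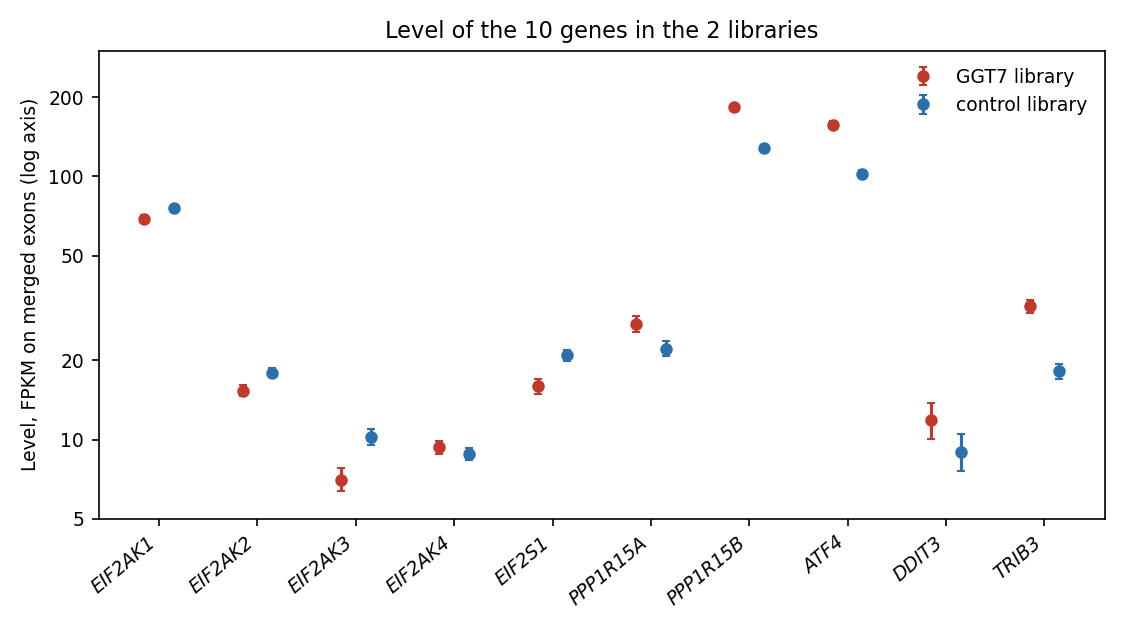
Level of each of the 10 genes on merged exons in FPKM (vertical log axis), in the GGT7 library (red, left) and the control library (blue, right), 1 library each, with exact 95% counting intervals. PPP1R15B, ATF4 and EIF2AK1 lie above 60 FPKM in both libraries, and TRIB3 lies at 32.1 in the GGT7 library and 18.1 in the control library.

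The 4 kinases carry the signal in, and their mRNAs were together slightly lower in the GGT7 library: their summed counts were 0.901 of the control share (0.874 to 0.928). EIF2AK1 (ENSG00000086232, GRCh38 chromosome 7, 6022244 to 6059230, minus strand), the heme-regulated kinase HRI that also answers mitochondrial stress through OMA1 and DELE1, had 3935 counts in the GGT7 library and 5671 in the control library. Its ratio was 0.909 (0.873 to 0.947). It was the most abundant kinase, with 68.5% of the summed kinase level in the GGT7 library and 67.2% in the control library, and 532 of its 5550 exonic bases overlap AIMP2 on the other strand.

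EIF2AK2 (ENSG00000055332, chromosome 2, 37099210 to 37157065, minus strand), the interferon-inducible kinase PKR that binds double-stranded RNA, had 1698 counts in the GGT7 library and 2601 in the control library, a ratio of 0.855 (0.804 to 0.910). The listed interferon-stimulated genes, the class it belongs to, were mixed: 13 of 20 were measured, 0 were 1.5-fold or more higher and 0 lower (all measured genes: 3.9% and 4.97%), and their median log2 difference was 0.11. OAS1, an enzyme that also senses double-stranded RNA, had the largest log2 difference upward among the measured ones, with 5.86 and 4.06 deposited FPKM in the GGT7 and control libraries, followed by IFIT3 (ratio 1.34) and IFIT2 (1.33). On the log2(FPKM + 1) scale IFI6 was farthest down among the measured ones, at a ratio of 0.672 (0.545 to 0.825). It was at 6.83 and 10.2 deposited FPKM in the GGT7 and control libraries. IFIT1 and DDX58 (ratio 0.812) were lower as well. By the plain ratio IFIT1, at 0.574 (0.397 to 0.819), stood below IFI6 and past 1.5-fold. IFI44, below 1 FPKM in both libraries, had 10 counts in the GGT7 library and 45 in the control library, a ratio of 0.291 (0.131 to 0.586).

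EIF2AK3 (ENSG00000172071, chromosome 2, 88556741 to 88627576, minus strand) encodes PERK, the kinase with a sensor in the lumen of the endoplasmic reticulum. It had 394 counts in the GGT7 library and 749 in the control library, or 7.05 and 10.2 FPKM. Of the 10 genes it was the lowest relative to the control, at a ratio of 0.689 (0.609 to 0.780) and a log2 difference of -0.46, and 8.13% of measured genes had a value that low or lower. The antisense gene AC104134.1 shares 781 of its 5434 exonic bases and AC062029.1 another 38, and no source used here says whether the counting was stranded.

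EIF2AK4 (ENSG00000128829, chromosome 15, 39934146 to 40035591, plus strand) encodes GCN2, which is switched on by uncharged tRNA and stalled ribosomes when amino acids run short. It had 1150 counts in the GGT7 library and 1419 in the control library, a ratio of 1.06 (0.982 to 1.15), and was the only member whose interval held 1. Because any scaling of the libraries cancels in a ratio of ratios, EIF2AK3 was also set against EIF2AK4. There were 0.343 EIF2AK3 counts per EIF2AK4 count in the GGT7 library and 0.528 in the control library, and the ratio of these was 0.649 (0.560 to 0.752). On merged exons EIF2AK3 held 7.00% of the summed kinase level in the GGT7 library and 9.07% in the control library, and EIF2AK4 held 9.29% and 7.81%.

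Genes for proteins that act on the kinases lay on both sides of the control. Of 11 measured regulators 0 were 1.5-fold or more higher and 0 lower, a count near the 3.9% and 4.97% of all measured genes, and the median log2 difference was -0.11. HSPA5, the chaperone BiP that holds the PERK sensor inactive, was at 283 deposited FPKM in the GGT7 library and 351 in the control library, a ratio of 0.807 (0.788 to 0.826). DNAJC3, which inhibits PERK and PKR, was at 0.811 of the control (0.761 to 0.863), and TARBP2, an inhibitor of PKR, at 0.708 (0.578 to 0.864). IMPACT, an inhibitor of GCN2, was the highest at 1.29 (1.09 to 1.52), ahead of PRKRA, an activator of PKR, at 1.17 and CNPY2 at 1.13. DELE1, listed in the table under its older symbol KIAA0141, had 605 counts in the GGT7 library and 914 in the control library, a ratio of 0.867 (0.781 to 0.962).

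EIF2S1 (ENSG00000134001, chromosome 14, 67359997 to 67386516, plus strand), the kinases' substrate, was lower in the GGT7 library, while the other subunits of the same complex were higher. It had 925 counts in the GGT7 library and 1590 in the control library, a ratio of 0.762 (0.702 to 0.827), and 269 of its 5651 exonic bases overlap ATP6V1D on the other strand. EIF2S2, the beta subunit, was at 1.3 (1.22 to 1.39) and EIF2S3, the gamma subunit that binds GTP, at 1.19 (1.16 to 1.23). There were 0.550 EIF2S1 counts per EIF2S2 count in the GGT7 library and 0.94 in the control library, a ratio of ratios of 0.585 (0.526 to 0.651). Against EIF2S3 the ratio of ratios was 0.640 (0.586 to 0.698).

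The exchange factor eIF2B, which phosphorylated eIF2alpha blocks, had subunits on both sides of the control. Of the 7 listed subunits of eIF2 and eIF2B, 0 were 1.5-fold or more higher and 0 lower, near the 3.9% and 4.97% of all measured genes, and the median log2 difference was 0.06. Among the eIF2B subunits EIF2B3 was highest at 1.16 (1.01 to 1.34), while EIF2B5, the catalytic subunit, was at 0.840 (0.704 to 0.9998), EIF2B1 at 0.895 and EIF2B4 at 0.948. Of 9 factors of start-codon choice and reinitiation, 0 passed 1.5-fold either way, which is likewise near those shares. MCTS1, which works with DENR in reinitiation after an upstream reading frame, was at 1.31 (1.14 to 1.5), EIF1 at 1.23 and EIF2D at 1.19, while EIF5 was at 0.775 (0.714 to 0.841), EIF5B at 0.816 and EIF1AX at 0.838.

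Both phosphatase subunits were higher in the GGT7 library, and their summed counts were 1.41 times the control share (1.37 to 1.45). PPP1R15A (ENSG00000087074, chromosome 19, 48872392 to 48876057, plus strand) encodes GADD34, the subunit induced by stress that closes the feedback loop. It had 874 counts in the GGT7 library and 922 in the control library, or 27.5 and 22.1 FPKM, a ratio of 1.24 (1.13 to 1.36). PPP1R15B (ENSG00000158615, chromosome 1, 204403387 to 204411791, minus strand) encodes CReP, the subunit known for constitutive expression. It had 9838 counts in the GGT7 library and 9012 in the control library, a ratio of 1.43 (1.39 to 1.47) that rests on the most counts of the 10 genes.

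Its log2 difference of 0.51 ranked 757 from the top among 14215 measured genes. PPP1R15B was further above its control level than PPP1R15A: there were 0.0888 PPP1R15A counts per PPP1R15B count in the GGT7 library and 0.102 in the control library, a ratio of ratios of 0.868 (0.787 to 0.958). PPP1R15B held 86.9% of the summed level of both subunits in the GGT7 library and 85.3% in the control library. The catalytic subunits they recruit differed little, at 0.916 (0.873 to 0.962) for PPP1CB, 1.01 (0.953 to 1.07) for PPP1CC and 0.967 for PPP1CA. The actin genes, whose monomeric product joins the same complex, were lower, with ACTB at 0.679 (0.669 to 0.689) and ACTG1 at 0.804 of the control.

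ATF4 (ENSG00000128272, chromosome 22, 39519695 to 39522685, plus strand) had a higher mRNA level in the GGT7 library. It had 4068 counts in the GGT7 library and 3469 in the control library, or 157 and 102 FPKM. Its ratio was 1.54 (1.47 to 1.61) and its log2 difference 0.61, rank 496 from the top. Processed pseudogenes of ATF4 could share reads with it: ATF4P3 had 72 counts in the GGT7 library and 77 in the control library, and ATF4P2 had 1 and 3.

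Genes for the turnover and upstream input of ATF4 were listed as well. Of 7 measured genes for its ubiquitin ligase and its upstream regulators, 0 were 1.5-fold or more higher and 0 lower, near the 3.9% and 4.97% of all measured genes, and the median log2 difference was -0.01. The ligase receptor genes BTRC and FBXW11 were at 1.08 (0.968 to 1.21) and 1.06 (0.982 to 1.15), and CUL1 and SKP1 at 0.913 and 0.931. CEBPA was at 1.23 (0.982 to 1.54) and EGLN3, an oxygen-dependent hydroxylase, at 0.8 (0.598 to 1.06).

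TRIB3 (ENSG00000101255, chromosome 20, 362835 to 397559, plus strand), a pseudokinase that binds AKT and damps ATF4 and CHOP, stood highest of the 10 genes. It had 1133 counts in the GGT7 library and 840 in the control library, or 32.1 and 18.1 FPKM. Its ratio was 1.77 (1.62 to 1.93) and its log2 difference 0.78, rank 260 from the top. Relative to ATF4 it was higher by a factor of 1.15 (1.04 to 1.27), the only member above ATF4 in this comparison. Of its relatives, TRIB1 was at 1.03 of the control and TRIB2 had 15 and 26 counts in the GGT7 and control libraries. By distance of log2(FPKM + 1) over the 2 libraries, the protein-coding genes most like TRIB3 among 10624 were C10orf54 (24.6 and 14.4 deposited FPKM in the GGT7 and control libraries), SLC1A1 (23.0 and 13.6) and C6orf106 (25.1 and 13.0).

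DDIT3 (ENSG00000175197, chromosome 12, 57516588 to 57521737, minus strand), which encodes the death-promoting factor CHOP, had the fewest counts and the widest interval. It had 159 counts in the GGT7 library and 158 in the control library, or 11.8 and 8.97 FPKM, a ratio of 1.32 (1.05 to 1.65). On the log2(FPKM + 1) scale its difference was 0.28 with the deposited FPKM and 0.36 with merged exons, below 1.5-fold in each case. Relative to TRIB3 it was lower, with 0.140 counts per TRIB3 count in the GGT7 library and 0.188 in the control library, a ratio of ratios of 0.746 (0.584 to 0.953). Relative to ATF4 the ratio of ratios was 0.858 with an interval that held 1 (0.681 to 1.08).

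Of the 10 genes DDIT3 shares the largest part of its exons with a gene on the other strand. MARS, a listed ATF4 target at 1.60 times the control with 2393 counts in the GGT7 library and 1963 in the control library, covers 355 of the 1307 exonic bases of DDIT3 on the other strand. AC022506.1, a protein-coding gene on the same strand, shares 105 of these bases, and MBD6 on the other strand shares 58. The sources used here do not say how reads from these stretches were counted, and their part in the DDIT3 value was not tested.

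**Figure D4:**
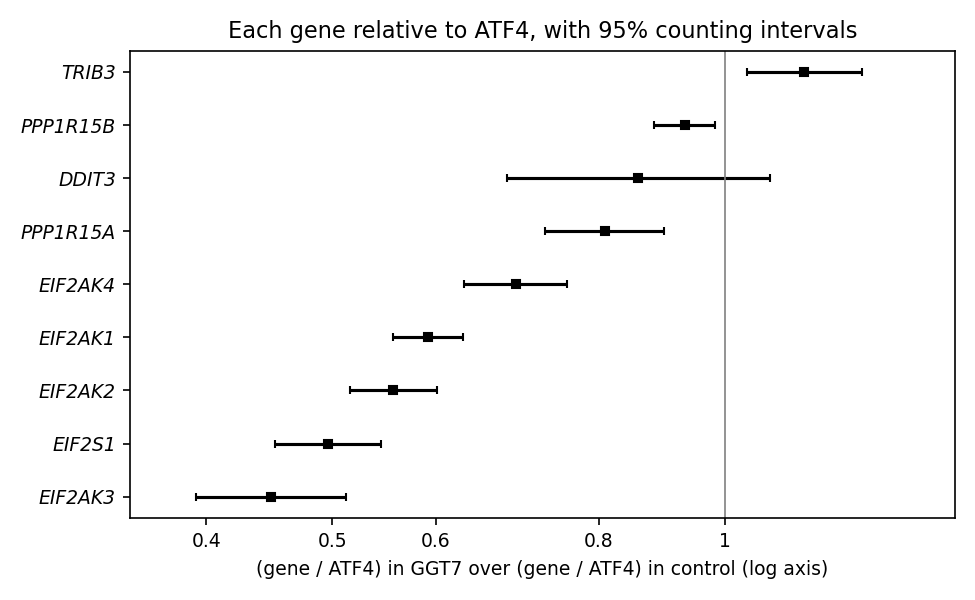
Counts of each gene per ATF4 count in the GGT7 library over the same in the control library (horizontal log axis), with exact conditional 95% intervals; gene length and library scaling cancel in this value. TRIB3 lies above 1 at 1.15, the interval of DDIT3 holds 1, and the kinases and EIF2S1 lie between 0.45 and 0.69. A gene at its control level would lie at 0.651.

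Set against ATF4 in this way, the other effectors and the phosphatase subunits lay nearer to 1 than the kinases and their substrate. Each value is the gene's own ratio divided by that of ATF4, so the order repeats that of the ratios above. A gene at its control level would stand at 0.651. TRIB3 was at 1.15, PPP1R15B at 0.931 (0.882 to 0.982), DDIT3 at 0.858 and PPP1R15A at 0.808 (0.728 to 0.897). The kinases followed, with EIF2AK4 at 0.691, EIF2AK1 at 0.592, EIF2AK2 at 0.557 and EIF2AK3 at 0.449 (0.393 to 0.512), and EIF2S1 stood at 0.496 (0.452 to 0.545).

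The listed ATF4 targets lay mostly above the control. Of 40 listed genes 37 were measured; 22 of these were 1.5-fold or more higher and 0 lower, against 3.9% and 4.97% of all measured genes. Their median log2 difference was 0.69. The list was chosen with earlier results of these data known, so its excess over all measured genes is a description only. Farthest on the log2(FPKM + 1) scale were SLC7A5, STC2 and SLC7A11, at 4.79, 3.47 and 3.10 times the control; by the plain ratio CHAC1, at 3.33, stood above SLC7A11. ALDH18A1 was the only measured gene of this list below 0, at 0.930 (0.871 to 0.994). TRIB3, at 1.77, and DDIT3, at 1.32, are themselves taken as ATF4 targets and were not in this list. ATF3, at 1.01 (0.911 to 1.12), and ATF5, at 0.706 (0.510 to 0.970), were not in it either and belong to the zipper proteins below.

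A shorter list of genes tied to CHOP, with the Tribbles relatives, held 5 measured genes besides DDIT3, PPP1R15A and TRIB3. Among these 5, PMAIP1, a BH3-only cell death gene, was 1.5-fold or more higher at 9.13 deposited FPKM in the GGT7 library and 5.58 in the control library, a ratio of 1.64 (1.40 to 1.91), against 3.9% of all measured genes that were that much higher. With a pseudocount of 5 its log2 difference was 0.42, below 1.5-fold. TNFRSF10B, the death receptor DR5, was at 1.36 (1.24 to 1.5), ERO1A, an oxidase of the endoplasmic reticulum, at 1.10, and BCL2L11 at 0.909 (0.807 to 1.02). BBC3, below 1 FPKM, had 27 counts in the GGT7 library and 35 in the control library.

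Of the zipper proteins that pair with ATF4 or CHOP, 8 of 10 were measured, 1 was 1.5-fold or more higher and 0 were lower, against 3.9% and 4.97% of all measured genes. The higher one was CEBPG, also counted among the ATF4 targets above, at 16.3 deposited FPKM in the GGT7 library and 8.37 in the control library. Its ratio was 1.95 (1.74 to 2.19). JDP2 was at 1.49 (1.23 to 1.81) and FOSL1 at 1.20. ATF5, itself under control by upstream reading frames, was at 0.706 (0.510 to 0.970), CEBPD at 0.731 (0.564 to 0.944) and JUN at 0.760 (0.725 to 0.797).

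The other arms of the response to unfolded proteins, run by ATF6 and by the nuclease IRE1 (ERN1), had genes on both sides of the control. Of 17 measured genes 0 were 1.5-fold or more higher and 0 lower, near the 3.9% and 4.97% of all measured genes, and the median log2 difference was -0.04. ATF6 was at 1.25 (1.18 to 1.32), ERN1 at 1.3 (1.13 to 1.49) and MBTPS2 at 1.18, while MANF was at 0.727 (0.633 to 0.833), ATF6B at 0.775 (0.705 to 0.852) and HSPA5 at 0.807. The listed mitochondrial chaperones and proteases were within 1.5-fold, 11 of 11, again near the shares of all measured genes, with a median log2 difference of 0.09. LONP1, a matrix protease, was highest at 1.27 (1.18 to 1.36), with TRAP1 at 1.25 and DNAJA3 at 1.26, and HSPE1 was lowest at 0.762 (0.688 to 0.844), then YME1L1 at 0.881 and CLPX at 0.989.

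**Figure D5:**
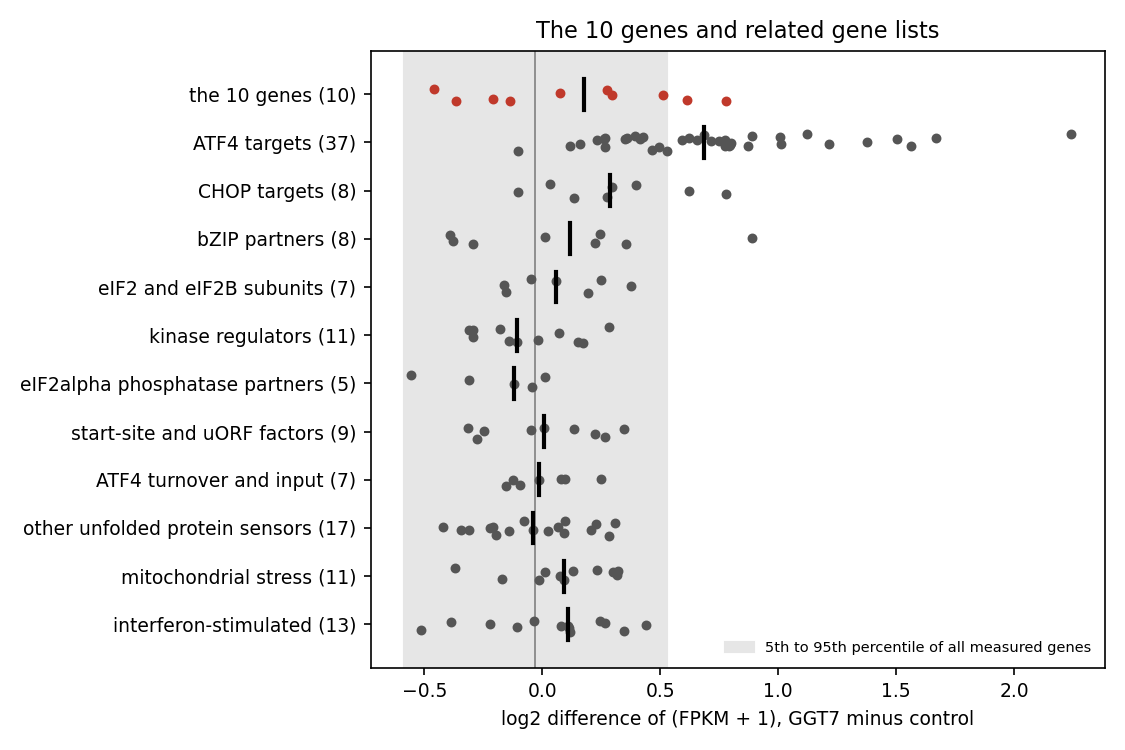
log2 difference of (FPKM + 1), GGT7 minus control (horizontal axis), for the measured genes of each list, with the number of genes in brackets, 1 point per gene and the median as a black bar; the grey band spans the 5th to 95th percentile of all measured genes. The 10 genes run from -0.46 to 0.78, while the ATF4 targets run from -0.10 to 2.24 with a median of 0.69.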

How the data were processed

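Per the labels' protocols, Illumina libraries were made from 1 ug of total RNA of AGS cells. Tools in the submitters' processing notes, without roles, are edgeR, HISAT2 and StringTie 1.3.0, with the build GRCh38; the counting tool, strandedness and annotation are not given in these sources. For each library the authors deposited an FPKM and a count per gene, as the file headers name them. The deposited count, whole in every intact line, is treated as an estimated count from the authors' quantification, since its tool is not given. Of 23378 lines, 2 were left out as broken. In 23 rows a date was replaced by the gene symbol of the ID, and rows of 31 shared symbols were summed, leaving 23321 genes. GENCODE 29 on GRCh38 gave positions, lengths and overlaps.

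The log2 difference is log2((GGT7 FPKM + 1)/(control FPKM + 1)) and is pulled toward 0 for low genes; ratios in the text carry no pseudocount. A gene counts as measured from 1 FPKM upward in its higher library. Intervals of a ratio of counts are exact conditional (Clopper-Pearson) 95% intervals given the library totals, those of a level exact Poisson, and those of a ratio of ratios exact conditional intervals of an odds ratio. All cover counting error alone: without molecular identifiers, reads may be copies of 1 molecule. A count of 0 allows 3 counts, or 0.292 CPM (GGT7) and 0.223 CPM (control). No test was run with 1 library per group.

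All 10 members are described. From each pathway list the 3 measured genes farthest up and the 3 farthest down are named. Others named are TRIB1, TRIB2, BBC3, ERO1A, DELE1, PPP1CA, MARS, IFI44, ATF3, ATF4 pseudogenes and the targets with the printed element. These others were chosen after their values were seen. Members and lists were chosen with earlier results of these data known. Promoter windows came from RefSeq (GRCh38.p14) and were matched by symbol or Entrez ID; EIF2AK1 had none. Alternatives were other pseudocounts (0.1 and 5), filters (none and 5 FPKM), TMM (edgeR 4.0.16), DESeq2 1.42.0 size factors, median and upper-quartile scaling, protein-coding genes alone, a 2-fold rule and, chosen after seeing the data, merged exonic lengths. The calculations were tested on simulated data. Python 3.11.15, scipy 1.17.1, matplotlib 3.10.9 and R 4.3.3 were used.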

Additional observations from a re-analysis of the deposited data

How the results depend on the processing

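With 1 library per group no library could be left out, and no paired analysis was possible. The number of the 10 genes 1.5-fold or more higher was 2 in 9 of 11 alternatives; with a pseudocount of 5 it was 1 (TRIB3), and under a 2-fold rule 0. The number lower was 0 in all 11. Across the scalings and pseudocounts every member kept the sign of its log2 difference: the range was 0.64 to 0.82 for TRIB3, 0.58 to 0.65 for ATF4, 0.50 to 0.55 for PPP1R15B, 0.12 to 0.38 for DDIT3 and -0.53 to -0.29 for EIF2AK3. The listed ATF4 targets 1.5-fold or more higher numbered 15 with a pseudocount of 5 and 23 with merged exonic lengths, against 22. The share of measured genes 1.5-fold or more higher was 7.13% with a pseudocount of 0.1 and 0.922% with 5, against 3.9%, and the share lower was 9.10% and 0.865%, against 4.97%. In the CHOP list with its 3 members, 1 gene (TRIB3) was 1.5-fold or more higher with a pseudocount of 5, against 2 (TRIB3 and PMAIP1, whose log2 difference was then 0.42), and the interferon list 1 lower with a pseudocount of 0.1 or merged lengths, against 0. The shift between scalings was at most 0.04 on the log2 scale. Depth limits DDIT3 most, with 159 and 158 counts in the GGT7 and control libraries.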
